A study of Mus musculus with 6 samples.

Results

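The aquaporin genes were followed in mpkCCD clone 11 cells, a line derived from the cortical collecting duct of the mouse kidney, after vehicle or the vasopressin analog dDAVP. Members were all probe sets of the deposited table whose platform annotation named exactly 1 gene from Aqp1 to Aqp9 or Aqp11. This gave 10 probe sets for 6 genes, of 28225 probe sets tested and 12364 genes named by such probe sets. Aqp3 had 2 probe sets, Aqp6 had 4, and Aqp1, Aqp2, Aqp5 and Aqp7 had 1 each. Aqp4, Aqp8, Aqp9 and Aqp11 were not analysed here. No probe set that names several genes included an aquaporin (0).

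Both groups were cells of the same line on permeable supports. Once the layer's electrical resistance was 5 kohm per cm2 or more, 3 cultures received 0.1 nM dDAVP (desmopressin, a V2 receptor agonist) for 5 days and 3 received vehicle for the same 5 days. The line is 1 immortalised clone, the labels name no genotype or transgene, and each of the 6 samples was 1 Affymetrix array of total RNA. The labels call the samples biological replicates without saying whether cultures were separate passages, so the p-values speak of the spread among these 6 arrays. All levels below are log2 signals of 1 probe set, and levels of different probe sets cannot be set against each other.

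Aquaporins are membrane channels that pass water, and a subgroup, the aquaglyceroporins, also passes glycerol. In the collecting duct, vasopressin binds the V2 receptor of principal cells and raises cAMP. Protein kinase A then phosphorylates AQP2, vesicles carrying it fuse with the apical membrane, and over a longer time transcription of Aqp2 rises. Water leaves the cell through AQP3 and AQP4 in the basolateral membrane. AQP1 and AQP7 belong to the proximal tubule, AQP6 to vesicles of intercalated cells, and AQP5 to glands and airways.

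The promoter windows of 3 members are shown because the Aqp2 transcript rose, Aqp5 lies next to Aqp2 in the genome, and Aqp3 encodes the basolateral channel of the same cells. Each window holds 250 bases before and 50 after the gene's start, from RefSeq on GRCm38.p6, read 5′ to 3′ on the gene's strand. Capitals mark matches on either strand to any of 6 motifs: the cAMP response element TGACGTCA, its core TGACG, the AP-1 motif TGANTCA, the GATA motif AGATAA, the NFAT core GGAAA and the ETS motif CCGGAA.
Aqp2, chr15:99578806-99579105, plus strand: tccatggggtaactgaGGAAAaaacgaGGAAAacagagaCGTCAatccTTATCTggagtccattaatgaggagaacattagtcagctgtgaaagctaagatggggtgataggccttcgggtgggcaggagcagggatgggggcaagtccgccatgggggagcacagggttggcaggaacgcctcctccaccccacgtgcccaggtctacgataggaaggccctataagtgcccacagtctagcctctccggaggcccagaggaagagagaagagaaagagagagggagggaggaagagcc
Aqp5, chr15:99590778-99591077, plus strand: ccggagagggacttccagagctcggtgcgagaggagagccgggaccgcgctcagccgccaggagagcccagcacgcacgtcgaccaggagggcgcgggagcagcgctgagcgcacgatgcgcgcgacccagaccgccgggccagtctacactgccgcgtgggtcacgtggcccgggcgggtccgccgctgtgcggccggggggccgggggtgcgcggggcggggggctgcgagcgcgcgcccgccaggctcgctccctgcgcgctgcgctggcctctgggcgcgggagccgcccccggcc
Aqp3, chr4:41098134-41098433, minus strand: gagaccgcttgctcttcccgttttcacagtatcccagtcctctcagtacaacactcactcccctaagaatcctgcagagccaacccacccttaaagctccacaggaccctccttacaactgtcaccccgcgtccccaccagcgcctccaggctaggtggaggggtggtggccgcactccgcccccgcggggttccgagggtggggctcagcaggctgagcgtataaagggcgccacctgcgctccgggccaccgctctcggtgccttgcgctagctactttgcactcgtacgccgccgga

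The Aqp2 window held 4 matches, and none of them overlapped another. TGACG was matched once, on the opposite strand (read as CGTCA) at -211 to -207 from the start, and AGATAA once, also on the opposite strand, at -202 to -197. GGAAA was matched at -234 to -230 and at -223 to -219. Among 32851 promoter windows of this length, 20.8% held TGACG, 11.2% AGATAA and 61.3% GGAAA. The full element TGACGTCA, held by 1.79% of windows, was not among the Aqp2 matches, nor were TGANTCA (7.81%) and CCGGAA (14.9%). The windows of Aqp3, Aqp5 and Aqp6 held 0 matches to the 6 motifs. The Aqp1 window held 2 matches to GGAAA, and of the Aqp7 windows the first held 2 to GGAAA and 1 to AGATAA. A match describes letters only, and binding was not measured.

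Aqp2, the apical water channel gene, was the member that rose. Its probe set, 1418903_at, measured 6.65, 6.72 and 6.72 log2 units on the vehicle arrays and 10.93, 10.79 and 10.82 on the dDAVP arrays. The lowest dDAVP array lay 4.07 log2 units above the highest vehicle array. The mean rose from 6.70 ± 0.042 to 10.85 ± 0.072 (SD, n = 3), a change of 4.15 ± 0.063 log2 units (SE, limma adjusted p = 1.66e-07), or 17.8-fold with a 95% interval of 16.1 to 19.7. It was the largest absolute change among the 28225 probe sets. The next 3 probe sets all belonged to Pde4b, a cAMP phosphodiesterase, at 2.39, 2.16 and 1.81 log2 units. In whole cultures, more cells with Aqp2 transcript and more transcript per cell cannot be told apart.

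**Figure D1:**
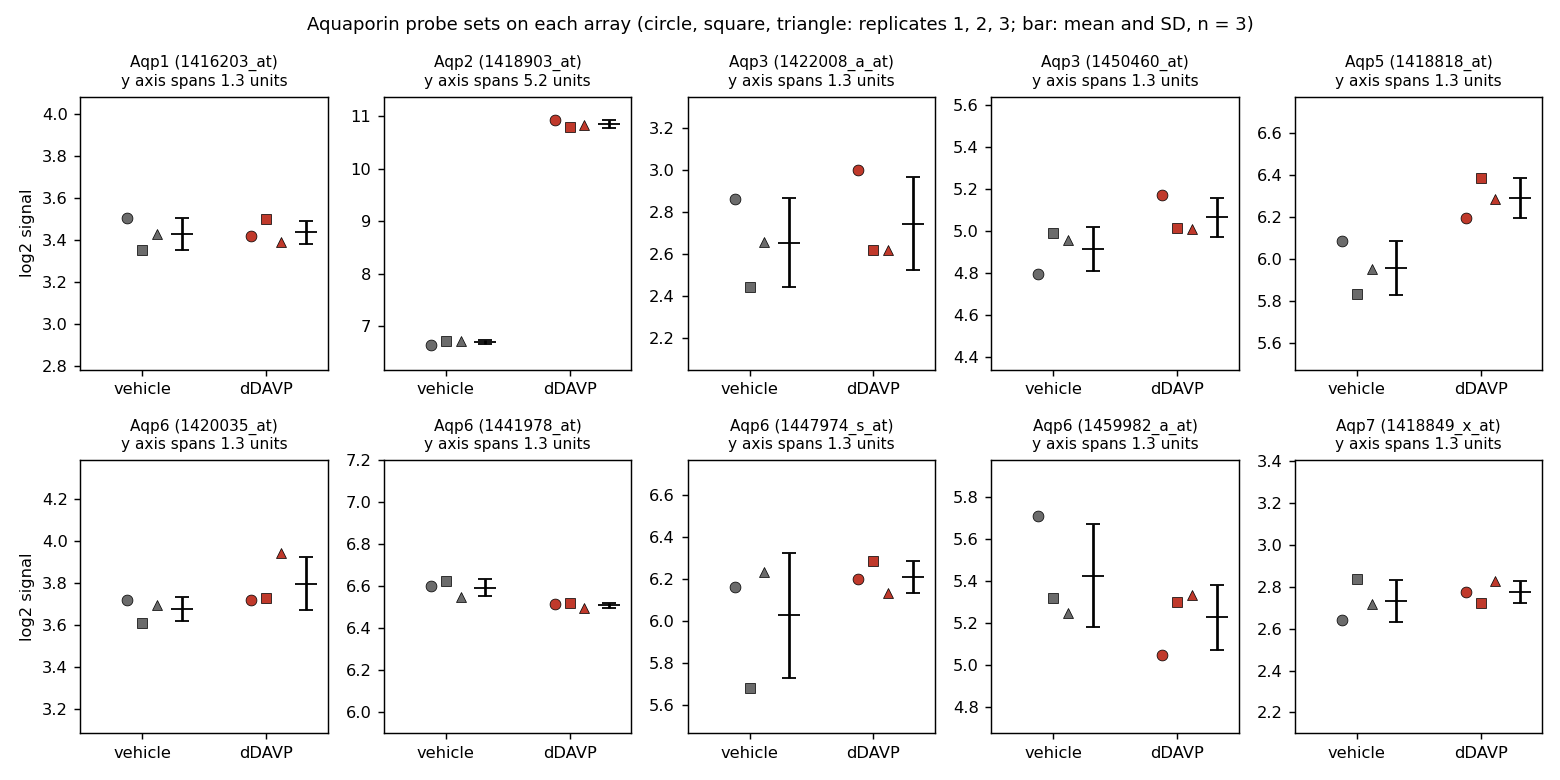
Each panel plots the log2 signal of 1 aquaporin probe set on the 3 vehicle and 3 dDAVP arrays, with the mean and SD beside the points; the Aqp2 panel has a wider axis than the others. The Aqp2 arrays sit near 6.70 and 10.85, while in every other panel the group means differ by 0.33 log2 units or less.

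Of the 10 aquaporin probe sets, 1 passed the limma test (Benjamini-Hochberg adjustment over the whole table, threshold 0.05), against 0.216% of all probe sets tested (61 of 28225). It was higher with dDAVP, as were 0.188% of all probe sets, and none passed as lower (0, against 0.0283%). An unadjusted limma p below 0.05 was found for 2, both higher, against 7.98% of all probe sets in either direction and 4.85% higher. The 9 probe sets outside Aqp2 had changes of -0.20 to 0.33 log2 units, 7 of them positive, with limma adjusted p from 0.313 to 0.989. The median over all 10 was 0.11, beside 0.0039 over all probe sets. The highest end of any 95% interval outside Aqp2 was 0.53 log2 units, or 1.44-fold, for Aqp5. All dDAVP arrays exceeded all vehicle arrays in 3 aquaporin probe sets (those of Aqp2, Aqp5 and 1 of Aqp3), a pattern seen in 8.07% of all probe sets. The reverse was seen in 1, of Aqp6, against 5.35% of all probe sets.

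**Figure D2:**
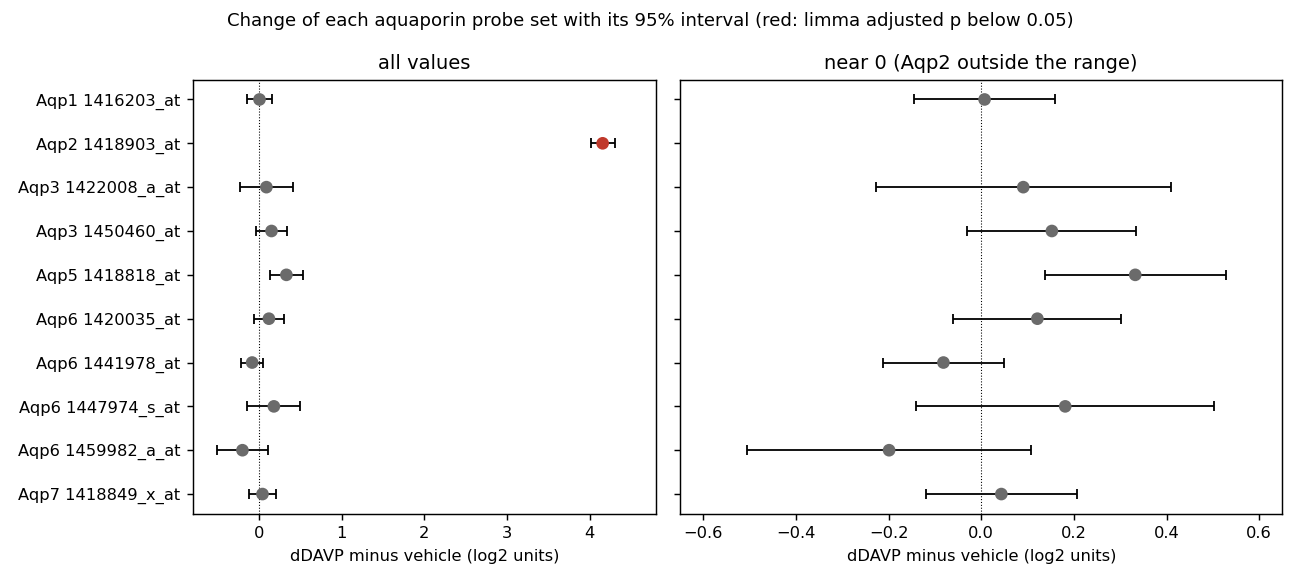
The dDAVP minus vehicle change of each aquaporin probe set is plotted in log2 units with its 95% interval from the moderated fit, over the whole range on the left and near 0 on the right. Aqp2 stands at 4.15, and of the others the Aqp5 interval, 0.14 to 0.53, is the 1 that does not reach 0.

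Aqp5 encodes a water channel best known from salivary, lacrimal and airway epithelia. Its probe set, 1418818_at, measured 6.09, 5.83 and 5.96 log2 units with vehicle and 6.20, 6.39 and 6.29 with dDAVP. The groups did not overlap, but the lowest dDAVP array exceeded the highest vehicle array by only 0.11. The change was 0.33 ± 0.084 log2 units (SE), or 1.26-fold (95% interval 0.14 to 0.53 log2 units), and it did not pass the test over all probe sets (limma unadjusted p = 0.00455, adjusted p = 0.313). An absolute change at least as large was found in 1.45% of all probe sets. The mean of the hybridisation controls, transcripts added to the labelled material, was 10.61 ± 0.080 with vehicle and 10.46 ± 0.066 with dDAVP (SD, n = 3, exact two-sided permutation p = 0.1). After scaling to those controls, the median of all probe sets moved from 0.0039 to 0.15 and Aqp5 to 0.48, which passed (limma adjusted p = 0.0425). Then 2 of 10 aquaporin probe sets passed, against 0.999% of all probe sets. Over all the alternatives the adjusted p of Aqp5 ran from that value to 0.994. Besides Aqp5, the gland and airway list had 1 measured gene, the ciliary factor Foxj1, with a log2 change of 0.01 ± 0.070 (SE, limma adjusted p = 0.985).

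Aqp3 encodes the basolateral aquaglyceroporin of principal cells. Both of its probe sets were designed from the same transcript accession. The probe set 1450460_at measured 4.79, 4.99 and 4.96 log2 units with vehicle and 5.17, 5.02 and 5.01 with dDAVP. Only 0.022 log2 units separated the groups, and the change of 0.15 ± 0.079 (SE) did not pass (limma adjusted p = 0.703, 95% interval -0.03 to 0.33). The probe set 1422008_a_at measured 2.87, 2.44 and 2.66 with vehicle and 3.00, 2.62 and 2.62 with dDAVP. These groups overlapped, the change was 0.09 ± 0.14 (SE, limma adjusted p = 0.932), and it turned negative without vehicle replicate 2 (-0.02) or dDAVP replicate 1 (-0.04). The upper ends of the 95% intervals were 1.26-fold for 1450460_at and 1.33-fold for 1422008_a_at.

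Aqp6 encodes a channel of intracellular vesicles in acid-secreting intercalated cells. Its 4 probe sets did not share a direction, and none of them passed (0, limma adjusted p from 0.785 to 0.834). The probe set 1441978_at measured 6.60, 6.63 and 6.55 log2 units with vehicle and 6.52, 6.52 and 6.50 with dDAVP. Every dDAVP array was below every vehicle array there, but the change of -0.08 ± 0.056 (SE) was small, and on scaling to the hybridisation controls it was 0.066. The probe set 1420035_at ranged from 3.61 to 3.72 with vehicle and from 3.72 to 3.94 with dDAVP, a change of 0.12 ± 0.078 (SE).

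The remaining Aqp6 probe sets were designed from 1 shared accession, yet their changes had opposite signs. The probe set 1447974_s_at measured 6.16, 5.68 and 6.23 with vehicle and 6.20, 6.29 and 6.13 with dDAVP. Vehicle replicate 2 was low there, and the change of 0.18 ± 0.14 (SE) was 0.0094 without that array. The probe set 1459982_a_at measured 5.71, 5.32 and 5.25 with vehicle and 5.05, 5.30 and 5.33 with dDAVP. Vehicle replicate 1 was high and dDAVP replicate 1 low, and the change of -0.20 ± 0.13 (SE) was -0.06 without the first and -0.11 without the second. In Affymetrix naming the suffix _s_at marks probes that can bind transcripts of more than 1 gene, and _a_at probes shared by transcripts of 1 gene. Which Aqp6 transcripts each probe set detects was not tested.

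Aqp1 encodes the constitutive water channel of proximal tubule, descending thin limb, endothelium and red cells. Its probe set, 1416203_at, measured 3.51, 3.35 and 3.43 log2 units with vehicle and 3.42, 3.50 and 3.39 with dDAVP. The change was 0.0072 ± 0.066 (SE, limma adjusted p = 0.989), with a 95% interval of 0.904-fold to 1.12-fold. Its sign was negative on centring to the array median (-0.0050), on scaling to the poly-A controls (-0.02), and without vehicle replicate 2 (-0.03) or dDAVP replicate 2 (-0.02). Aqp7 encodes the aquaglyceroporin of fat cells and of the straight proximal tubule. Its probe set, 1418849_x_at, of a kind in which some probes can bind other transcripts, measured 2.64, 2.84 and 2.72 with vehicle and 2.78, 2.72 and 2.83 with dDAVP. The change was 0.04 ± 0.070 (SE, limma adjusted p = 0.939, 95% interval 0.920-fold to 1.15-fold), and it was -0.0017 without vehicle replicate 1.

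A low-signal reference was taken from 10 olfactory receptor probe sets, most of whose genes belong to nasal epithelium. The 95th percentile of their mean levels was 3.56 log2 units. The probe sets of Aqp1 (mean 3.43) and Aqp7 (2.75) and 1 probe set of Aqp3 (1422008_a_at, 2.70) were at or below it, and the other 7, from 4 genes, were above it. Of all probe sets tested, 3048 were at or below it. Probe affinities differ and some olfactory receptors are known from kidney, so the limit is approximate.

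Whether Aqp2 changed more than the other aquaporins was tested as a difference within each array. The Aqp2 change exceeded that of each of the 9 other probe sets by 3.82 to 4.35 log2 units. The smallest difference was from Aqp5, 3.82 (95% interval 3.45 to 4.20, with 4 residual degrees of freedom). It was 4.0 (3.89 to 4.11) from Aqp3 1450460_at, and the largest, 4.35 (3.77 to 4.94), was from Aqp6 1459982_a_at. In all 9 comparisons the 3 dDAVP arrays lay above the 3 vehicle arrays, with an exact two-sided permutation p of 0.1 and an adjusted p of 0.1 over the 9 pairs. That is the smallest p that 3 against 3 arrays allow, so this exact test cannot reach 0.05. All 9 comparisons share the same Aqp2 values, whose groups lay 4.07 log2 units apart, so they are not separate tests.

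**Figure D3:**
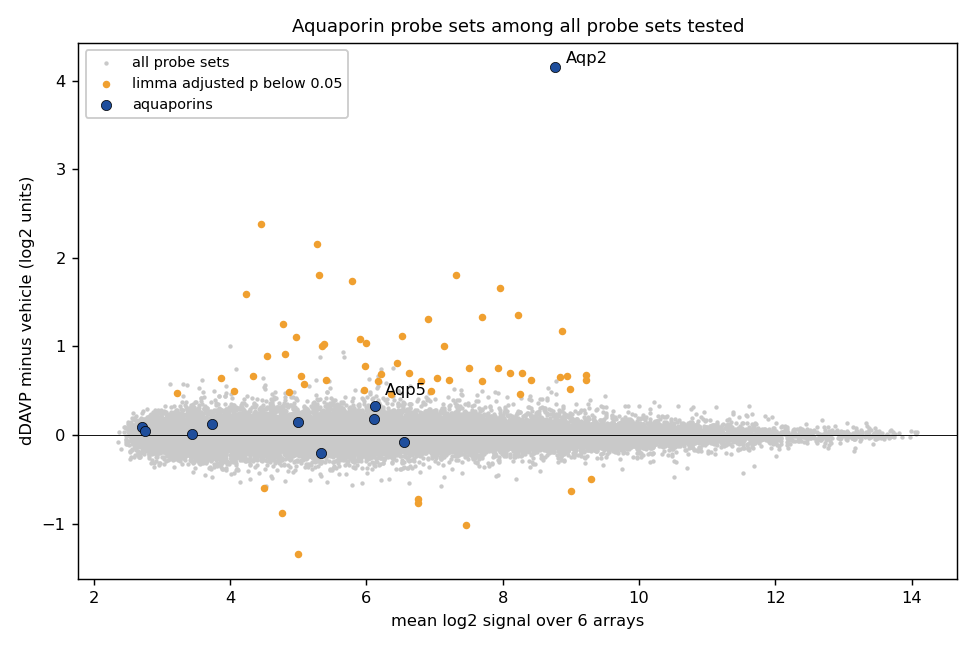
Every probe set tested is plotted by its mean log2 signal over 6 arrays and its dDAVP minus vehicle change in log2 units, with passed probe sets in orange and aquaporins in blue. Aqp2 stands alone at 4.15, above the next probe set at 2.39, and the other aquaporins lie inside the grey band.

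Aqp2, Aqp5 and Aqp6 lie next to each other on chromosome 15 in the mouse gene table, in that order. Their probe sets thus had changes of 4.15, 0.33, and -0.20 to 0.18 log2 units. The protein-coding genes up to 5 places from any of them numbered 10 besides aquaporins, of which 5 were measured, with 8 probe sets. At an unadjusted limma p below 0.05 there was 1, against 7.98% of all probe sets. None passed in limma (0, against 0.216%), and their changes ran from -0.16 to 0.11. These were Tmbim6 (0.06), an endoplasmic reticulum protein that limits cell death, the RNA methyltransferase Bcdin3d (-0.04), the cytokinesis regulator Racgap1 (-0.15 and -0.16), the chromatin remodelling subunit Smarcd1 (-0.08), and the glycerol-3-phosphate dehydrogenase Gpd1 (0.09, 0.11 and 0.09). The probe set with the unadjusted p below 0.05 was the lower one of Racgap1 (limma unadjusted p = 0.0212, adjusted p = 0.503).

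Aqp7 and Aqp3 are neighbours on chromosome 4. Of the 10 other genes in their surroundings 9 were measured, with 18 probe sets. None passed in limma (0, against 0.216% of all probe sets), with 0 at an unadjusted p below 0.05, against 7.98%. The changes ran from -0.26 for a Dcaf12 probe set to 0.12 for a Ubap1 probe set. The values for the rest, from B4galt1 and Bag1 through Chmp5, Nfx1, Nol6 and Ube2r2 to Ubap2, lay between these.

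**Figure D4:**
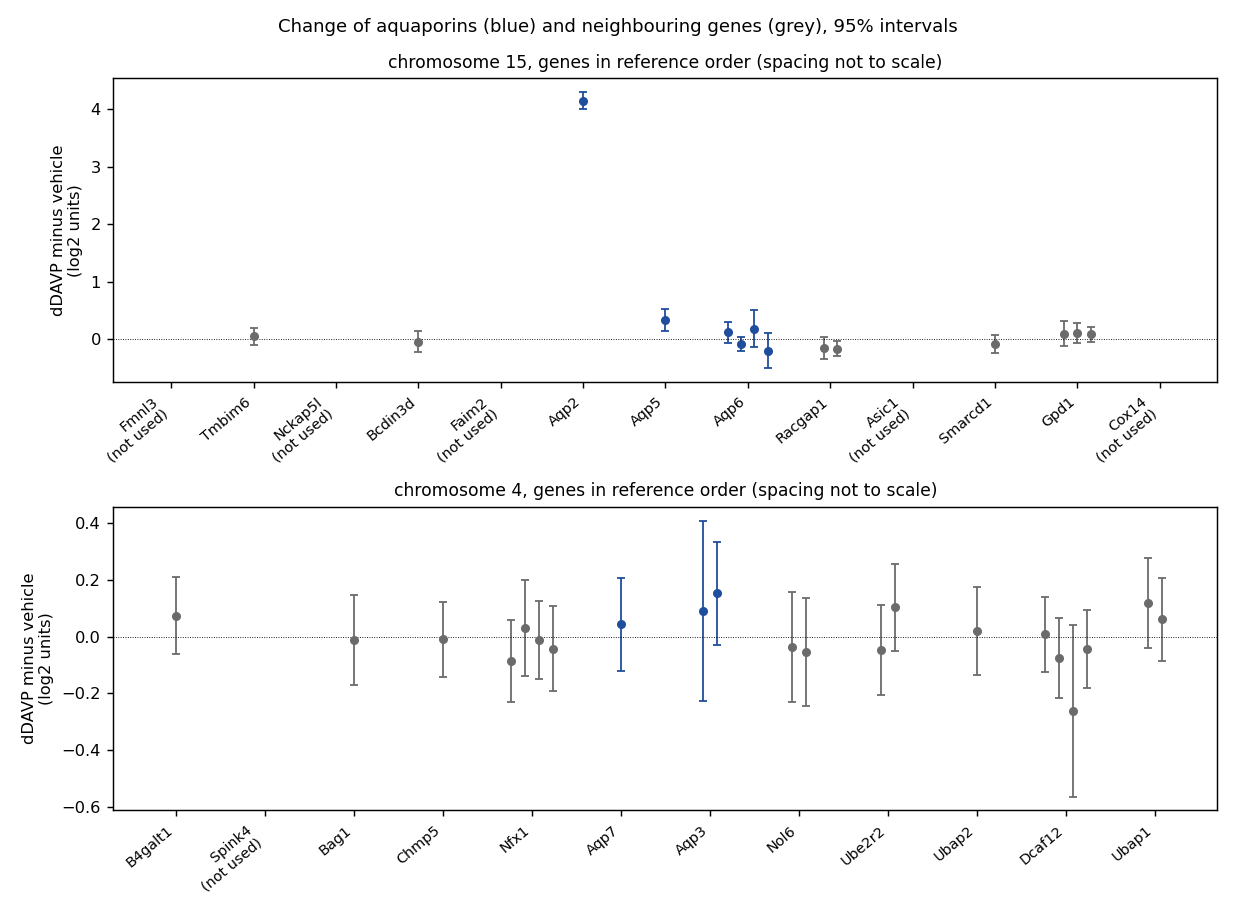
Changes in log2 units with 95% intervals are plotted for aquaporins (blue) and their neighbouring genes (grey) in reference order on chromosome 15 (top) and chromosome 4 (bottom), with 1 point per probe set. Aqp2 is at 4.15, and none of the neighbours' probe sets on chromosome 15 lies beyond -0.16 or 0.11.

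Genes between the receptor and Aqp2 were described from lists fixed with earlier results of these data known. Each gene stood by its brightest probe set. By that measure 0.291% of 12364 genes passed. Of the 26 measured genes of receptor, cAMP and kinase signalling, 2 rose and 24 did not pass, with 0 lower and a median change of 0.03. At an unadjusted limma p below 0.05 there were 6 (5 with a positive change, 1 with a negative one), against 7.80% of all genes, among them the phosphodiesterase Pde4d at 0.55 and the arrestin Arrb1 at -0.50 log2 units (limma adjusted p = 0.255 and 0.268). Pde4b, which breaks down cAMP, rose 3.51-fold (4.40 ± 0.19 to 6.21 ± 0.11, SD, n = 3, limma adjusted p = 9.74e-04). Avpr2, the V2 receptor gene, rose 1.44-fold (8.73 ± 0.072 to 9.25 ± 0.053, limma adjusted p = 0.0271). The Avpr2 call ended when any 1 of the 6 arrays was left out (log2 change 0.48 to 0.55, limma adjusted p from 0.0851 to 0.155), on scaling to the poly-A controls (0.50, adjusted p = 0.0897) and with the replicate number as a block (adjusted p = 0.157).

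Of the 37 measured genes of AQP2 vesicle trafficking, none passed in limma (0, with 2 at an unadjusted p below 0.05, against 7.80% of all genes), and the median was -5.1e-04. The lowest p belonged to Rap1gap, a GTPase activator for Rap1, at -0.16 ± 0.067 (SE, limma adjusted p = 0.613), and the next to the myosin motor Myo5c at 0.15 ± 0.062 (adjusted p = 0.618). Of the 30 measured genes listed as transcription factors linked to Aqp2 or the collecting duct, none passed (0), and the median was -0.03. At an unadjusted limma p below 0.05 there were 7 (3 with a positive change, 4 with a negative one), against 7.80% of all genes. The AP-1 members Fosl2, at 0.39 ± 0.070 (SE, limma adjusted p = 0.127), and Jun, at -0.38 ± 0.071 (adjusted p = 0.143), had the lowest p and opposite signs. Both passed when probe sets at or below the median level were left out (adjusted p = 0.0316 and 0.0362) and with a trended prior (0.0302 and 0.0128). On scaling to the hybridisation controls Fosl2 passed (0.53, limma adjusted p = 0.00990) and Jun did not (-0.23, adjusted p = 0.176), while Fosl1, another AP-1 member, passed at 0.58 (adjusted p = 0.0175). The list of other water and small solute channels had 1 measured gene of 5, the transporter Slc4a11, with a change of 0.25 ± 0.075 (SE, limma adjusted p = 0.422).

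**Figure D5:**
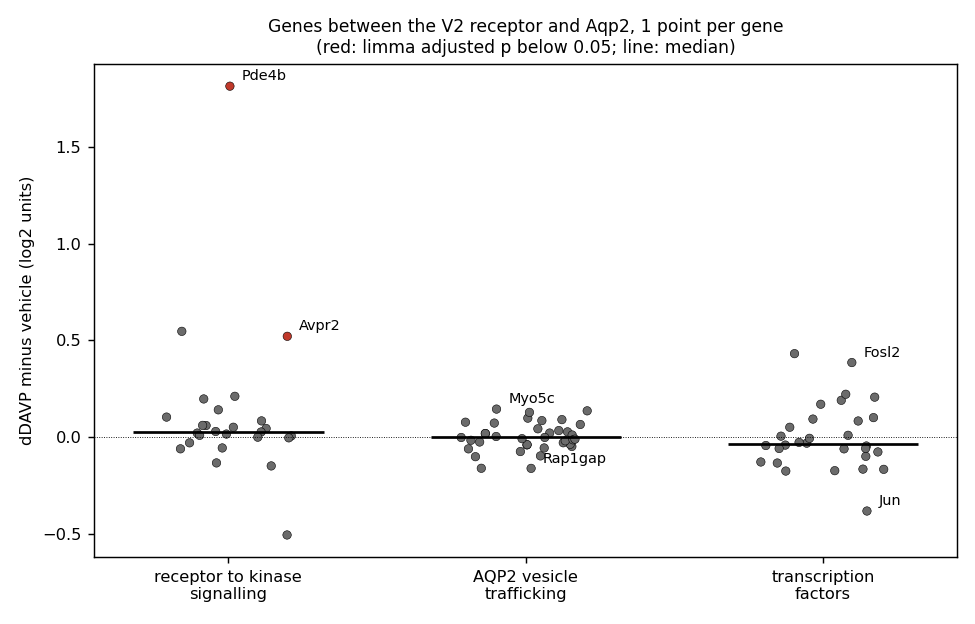
Each point is 1 gene's dDAVP minus vehicle change in log2 units in the lists of receptor to kinase signalling, AQP2 vesicle trafficking and transcription factors, with the list median as a line. Pde4b at 1.81 and Avpr2 at 0.52 are the points past the threshold.

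The genes whose values over the 6 arrays were most like those of Aqp2 were taken from the 16 probe sets, of 12 genes, with a change of at least 1 log2 unit in either direction. By Pearson's r over 6 arrays they were the sulfotransferase Sult1d1 (0.997), the small proline-rich protein gene Sprr1a (0.995), the magnesium transporter family gene Nipal1 (0.995), the mucus protein gene Fcgbp (0.993) and Pde4b (0.990). The 6 points fall into groups of 3, so r here describes mainly the step between vehicle and dDAVP. The step itself was smaller in each of these probe sets, at 1.74, 1.09, 1.34, 1.18 and 1.81 log2 units, than the 4.15 of Aqp2.

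Markers of principal cells and of other cell types were examined as lists without their aquaporins, as the mean log2 level per array. With 3 against 3 arrays the exact test on such a mean cannot give a p below 0.1. For 11 measured principal cell markers the mean was 8.23 to 8.25 with vehicle and 8.37 to 8.42 with dDAVP (exact two-sided permutation p = 0.1). Besides Aqp2, Avpr2 and the sodium pump regulator Fxyd4 rose among them, the latter 1.60-fold (limma adjusted p = 0.0116), a call that was lost on leaving out vehicle array 1, vehicle array 3, dDAVP array 1 or dDAVP array 3 (log2 change 0.65 to 0.66), and with the replicate number as a block (adjusted p = 0.0955). The other 10 measured markers of the whole list did not pass, and 6 of the 13 had an unadjusted limma p below 0.05 (5 with a positive change, 1 with a negative one), against 7.80% of all genes. The negative one was the sialyltransferase St6gal1 at -0.45 (limma adjusted p = 0.0606), and Gata3 (-0.08), Hsd11b2 (-0.04) and Elf5 (-0.0049) were also below 0. The median change of the 11 was 0.06. For 5 measured intercalated cell markers it was 7.12 to 7.22 and 7.34 to 7.42 (exact p = 0.1), with no gene passing in limma (0, and 2 at an unadjusted p below 0.05, the proton pump subunits Atp6v1b1 and Atp6v0a4, against 7.80% of all genes). The intercalated factor Foxi1 and the exchangers Slc4a1 and Slc26a4 were not analysed here.

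For 3 proximal tubule markers the mean was 5.80 to 5.89 and 5.82 to 5.97 (exact two-sided permutation p = 0.5). The list mean was 4.40 to 4.43 and 4.43 to 4.57 for 4 markers of the loop of Henle and distal tubule (exact p = 0.1), whose ranges all but touched and of which Slc12a1 had a negative change (-0.06). It was 5.96 to 6.05 and 6.08 to 6.10 for 3 leukocyte markers (exact p = 0.1), of which Csf1r had a negative change (-0.13). For 2 liver markers it was 3.21 to 3.39 and 3.08 to 3.16 (exact p = 0.1), with opposite changes of -0.37 for Alb and 0.09 for Ttr. Both were below the olfactory limit of 3.56 on average. So were Slc12a1 (mean 2.93) and Cldn10 (3.18) of the loop and distal list, the leukocyte marker Ptprc (3.21) and the endothelial marker Cdh5 (3.10). Of the brain and muscle list only the muscle genes Acta1 and Ckm were measured, and no brain marker was. The groups overlapped for those 2 genes (exact p = 0.3) and for the single endothelial marker (1 gene, exact p = 0.9). No gene of these lists passed in limma (0, with 3 at an unadjusted p below 0.05, against 7.80% of all genes). Those 3 were Kcnj10 of the loop and distal list (0.25), the leukocyte marker Cd68 (0.20) and Alb (-0.37). The part of these shifts in the aquaporin values was not tested.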

How the data were processed

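RNA from 3 vehicle and 3 dDAVP cultures was measured on Affymetrix mouse expression arrays. The authors deposited log2 signals, 1 per probe set and array. MAS5, RMA and version 1.1 of Affymetrix Expression Console appear in the submitters' processing notes. Which of them made the values, and any filter behind the 28287 probe sets, are not given in the sources used here. Array medians lay within 0.043 log2 units, so no further normalization was applied. Some array summary methods can understate fold changes at low signal, and whether the one used here does was not tested. The number of arrays limits the precision.

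The 62 control probe sets were left out, and 28225 were fitted together in limma 3.58.1 under R 4.3.3 (lmFit, eBayes, 4 residual degrees of freedom) with Benjamini-Hochberg adjustment at 0.05. The code was tested on simulated data. Groups and replicate numbers came from sample titles. Gene names came from the platform annotation. Gene order came from the RefSeq gene table of GRCm38.p6. Promoter sequences and the coordinates of their windows came from RefSeq on that build, and no array value was placed by coordinates. Protein sequences were not used here.

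Members, lists and alternatives were chosen with earlier results of these data known. Genes named are all members, their neighbours, the 5 most like Aqp2, the 3 next by size of change, and in each pathway list up to 4 that passed or else the 2 with the lowest p. Other genes named in the pathway and marker lists were chosen after their values were seen. Alternatives were other normalizations and scalings, filters on dim probe sets, other priors, a replicate block, a threshold of 0.01, any probe set of a gene in place of its brightest, and leaving out each array.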

Additional observations from a re-analysis of the deposited data

How the results depend on the processing

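The Aqp2 change stayed between 4.11 and 4.30 log2 units and passed under all 15 alternatives (limma adjusted p at most 8.77e-05). The count of aquaporin probe sets passing was 1 under 15 of 16 alternatives and 2 on scaling to the hybridisation controls, where Aqp5 passed and Aqp6 1441978_at turned to 0.066. The Aqp3 and Aqp6 probe sets passed under none that tests them (0). Reversals among the dim members were Aqp1 at -0.0050 on median centring and -0.017 on poly-A scaling. Without 1 array Aqp1 ran from -0.031 to 0.045, Aqp3 1422008_a_at from -0.037 to 0.20 and Aqp7 from -0.0017 to 0.10. The causes were not tested.

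Of all probe sets tested, 61 passed, 53 higher and 8 lower. The counts became 282, 275 of them higher, on hybridisation scaling, 95 with 21 lower above the median level, 146 (116 higher, 30 lower) with a trended prior, and 23 (19 and 4) at a threshold of 0.01. On poly-A scaling 4 were lower, and above the olfactory limit 13. Without 1 array the counts ran from 22 to 46, with 18 to 40 higher and 4 to 6 lower. Signalling genes passing were 1 in place of 2 on poly-A scaling, above the median level, which removes Pde4b, and without any 1 array (1 to 1). On hybridisation scaling 3 signalling genes passed, Pde4d at 0.69 (limma adjusted p = 0.0397) besides Pde4b and Avpr2. Transcription factors passing were 2 in place of 0 on hybridisation scaling (Fosl1 and Fosl2), and 2 above the median level and with a trended prior (Fosl2 and Jun). The smallest excess of the Aqp2 change over another aquaporin was 3.73 to 3.90 without 1 array. Filters on dim probe sets give no value for the members they remove, 9 probe sets at the median and 3 at the olfactory limit.

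The labels do not say whether a replicate number is shared between the groups, and the array values did not settle it. Deviations of same-numbered arrays correlated at 0.20, 0.05 and -0.05, and 3 of 6 arrays correlated best with their own number. With the replicate block 24 probe sets passed, 21 higher and 3 lower, and 1 signalling gene.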
